A study of Homo sapiens with 10 samples.

Results

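To examine the genes through which tubule cells can hold leukocytes, 8 adhesion molecules were followed in irradiated renal proximal tubular epithelial cells (RPTECs): VCAM1, ICAM1, SELP, SELE, ALCAM, CD44, L1CAM and CEACAM1. They were chosen by name, with earlier results of these data known. Each was matched by symbol to 1 row among the 61587 genes of the count table. The cells were RPTEC/TERT1, a line of human proximal tubule (PT) cells immortalised with telomerase and grown without leukocytes. One group of 5 samples received 10 Gy of gamma irradiation from a caesium-137 source, a dose used to induce senescence, and the other 5 control samples were mock-irradiated, that is, carried to the irradiator without exposure. RNA was collected at day 7, and replicates are numbered 1 to 5 in both groups. The label for the cell line ends in a different number in each sample, whereas the study's methods name only RPTEC/TERT1.

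Leukocytes leave the blood in steps. Selectins first slow them by binding sugars on their surface, after which immunoglobulin-type ligands such as ICAM-1 and VCAM-1 hold them through integrins. P-selectin (SELP) and E-selectin (SELE) are known mainly from activated endothelium and platelets, while VCAM-1 and ICAM-1 are also known on injured tubule cells. ALCAM binds CD6 on T cells, CD44 binds hyaluronan, L1CAM and CEACAM1 bind their own kind on neighbouring cells, and the last of these also acts as an inhibitory receptor.

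A gene was tested where its counts in the 10 samples summed to 200 or more, and 7 of the 8 members reached this limit. Of these 7, 5 were up-regulated in irradiated cells (SELP, VCAM1, CEACAM1, ICAM1 and CD44), L1CAM was down-regulated and ALCAM did not pass the test (edgeR's quasi-likelihood test with replicate number as a block, Benjamini-Hochberg adjusted p under 0.05). Over all 19006 genes tested, 23.9% were called higher and 22.7% lower. The members' median log2 fold change was 1.23, beside a median of -0.0098 over all genes tested. Since the members were chosen with earlier results of these data known, these comparisons only describe them. SELE had only 2 counts in all and was not tested. Because these are bulk samples, fewer cells making a transcript and less transcript per cell cannot be told apart.

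Counts on genes summed to between 66269311 and 131555873 per sample. The tubule epithelial markers were present, with a summed level of 2753 to 2979 CPM (gene counts scaled to the TMM-normalised library size) in controls and 2848 to 3539 CPM in irradiated samples. However, 2 of these 13 markers, the brush border genes LRP2 and SLC34A1, were below the limit of 200 counts. Control replicate 3 stood apart: the chi-square per gene between it and the other controls was 89.8 to 163, whereas the other controls differed from each other by 11.7 to 77.9. Results of the members are therefore given with and without replicate 3.

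To show what lies in front of the vascular adhesion genes, up to 250 bases before the start of each were taken from RefSeq (GRCh38.p14). They are written 5′ to 3′ on the strand of the gene, and bases that the GENCODE annotation places in an exon of the gene were left out. Capitals mark a κB decamer, the sequence that NF-κB factors bind, or the letters TATAAA read on either strand. The VCAM1 stretch is chr1:100719492-100719741 on the plus strand, SELE is chr1:169734124-169734329 on the minus strand, ICAM1 is chr19:10270870-10271092 on the plus strand and SELP is chr1:169630194-169630374 on the minus strand.
VCAM1: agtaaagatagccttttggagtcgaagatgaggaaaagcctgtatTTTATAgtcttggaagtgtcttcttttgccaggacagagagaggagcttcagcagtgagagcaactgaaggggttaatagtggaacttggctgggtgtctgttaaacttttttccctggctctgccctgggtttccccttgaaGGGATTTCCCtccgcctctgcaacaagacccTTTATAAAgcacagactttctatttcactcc
SELE: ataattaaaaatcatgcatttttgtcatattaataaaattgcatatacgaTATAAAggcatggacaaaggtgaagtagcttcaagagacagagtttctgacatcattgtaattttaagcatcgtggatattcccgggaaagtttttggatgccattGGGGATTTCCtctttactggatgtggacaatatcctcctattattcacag
ICAM1: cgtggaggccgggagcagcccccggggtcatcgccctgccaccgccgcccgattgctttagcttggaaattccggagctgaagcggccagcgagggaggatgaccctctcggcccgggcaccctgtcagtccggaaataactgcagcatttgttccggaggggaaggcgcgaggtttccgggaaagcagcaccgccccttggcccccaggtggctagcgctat
SELP: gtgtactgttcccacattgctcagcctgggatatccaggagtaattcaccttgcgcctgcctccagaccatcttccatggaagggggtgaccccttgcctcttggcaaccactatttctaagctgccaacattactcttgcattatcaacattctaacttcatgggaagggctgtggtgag
VCAM1 held a κB decamer from -62 to -53, counted back from the RefSeq start, and it matches the form on both strands. Its TATAAA letters on the 2 strands overlap just downstream, at -31 to -24, and a further match on the minus strand lies at -205 to -200. SELE held a κB decamer from -94 to -85, with TATAAA at -200 and, in the part not printed, at -30. ICAM1 held TATAAA at -30, which runs into the part left out, and no κB decamer of this form. The SELP window held neither this form nor TATAAA. Lack of this form does not show that a window lacks sites for NF-κB factors. Outside these 4, CEACAM1 alone of the members held a κB decamer, from -203 to -194. The AP-1 letters TGANTCA were in no member's window on either strand. Of 35116 RefSeq promoter windows of this length, 9.96% held the κB decamer, 10.7% TATAAA and 6.57% TGANTCA, and a match describes the letters, not a bound site.

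The selectins were examined first. SELP (chromosome 1, 169588849 to 169630193, minus strand) stood at 0.294, 0.451, 0.199, 0.780 and 0.361 CPM in control replicates 1 to 5. In irradiated replicates 1 to 5 it stood at 11.9, 7.35, 20.8, 11.5 and 9.20 CPM. The lowest irradiated sample was thus well above the highest control, and the counts behind these values ran from 20 to 84 in controls and from 492 to 1929 in irradiated samples. The fitted change was 27.7-fold (log2 fold change 4.79, SE 0.38, adjusted p = 7.46e-05), the 7th highest of 19006 genes tested. Within replicate pairs the ratio ran from 14.7 to 104.5, with the largest in pair 3, where the control was the lowest and the irradiated sample the highest. The log2 fold change without replicate 3 was 4.40 (adjusted p = 4.91e-05).

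SELE, which lies on the same arm (chromosome 1, 169722640 to 169764705, minus strand), did not share this rise. It was at 0 in 9 of 10 samples, and both of its counts came from irradiated replicate 1. Since both groups were at or under a floor of 3 counts per library, no fold is given, and in a fit of every gene with at least 1 count SELE was not called (adjusted p = 0.66).

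VCAM1 (chromosome 1, 100719742 to 100739045, plus strand), the ligand of integrin α4β1, was scarce in both groups. Its level was 0.183, 0.372, 0.269, 0.353 and 0.235 CPM in control replicates 1 to 5 and 2.76, 2.08, 1.33, 2.53 and 2.83 CPM in the irradiated ones. The groups did not overlap, and counts ran from 15 to 52 in controls and from 123 to 273 in irradiated samples. VCAM1 was 7.89-fold higher after irradiation (log2 fold change 2.98, SE 0.24, adjusted p = 7.52e-05). Pair ratios ran from 4.94 in pair 3 to 15.02 in pair 1, and leaving out replicate 3 gave a log2 fold change of 3.12 (adjusted p = 0.000127).

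ICAM1 (chromosome 19, 10271093 to 10286615, plus strand) encodes the ligand of the β2 integrins LFA-1 and Mac-1. Controls stood at 17.3, 25.1, 39.1, 18.8 and 19.97 CPM, and irradiated samples at 51.5, 51.8, 51.8, 58.6 and 56.3 CPM. Every irradiated sample was above every control, and the spread was narrower after irradiation (SD 3.26 CPM, n = 5) than in controls (SD 8.91 CPM, n = 5), where replicate 3 was the highest. The log2 fold change was 1.23 (SE 0.18, adjusted p = 0.00102), or 2.35-fold. Pair 3 had the smallest ratio at 1.32, and the other pairs lay between 2.07 and 3.11. Leaving replicate 3 out gave a log2 fold change of 1.44 (adjusted p = 0.000112).

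The counts on ICAM1 also carry a limit of the counting. Of its merged exon length, 25.4% lies under exons of genes on the opposite strand, mainly ICAM4-AS1, which shares 815 bases (23.6%), and LIMASI, which shares 61 bases. The counts did not use strand, so that reads falling on both genes of such a pair were lost and the level of ICAM1 is a lower estimate. ICAM4-AS1 had 37 counts over the 10 samples and LIMASI had 13, against 36971 on ICAM1. The shared stretch is the same in every sample, and both antisense genes were below the limit of 200 counts.

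**Figure D1:**
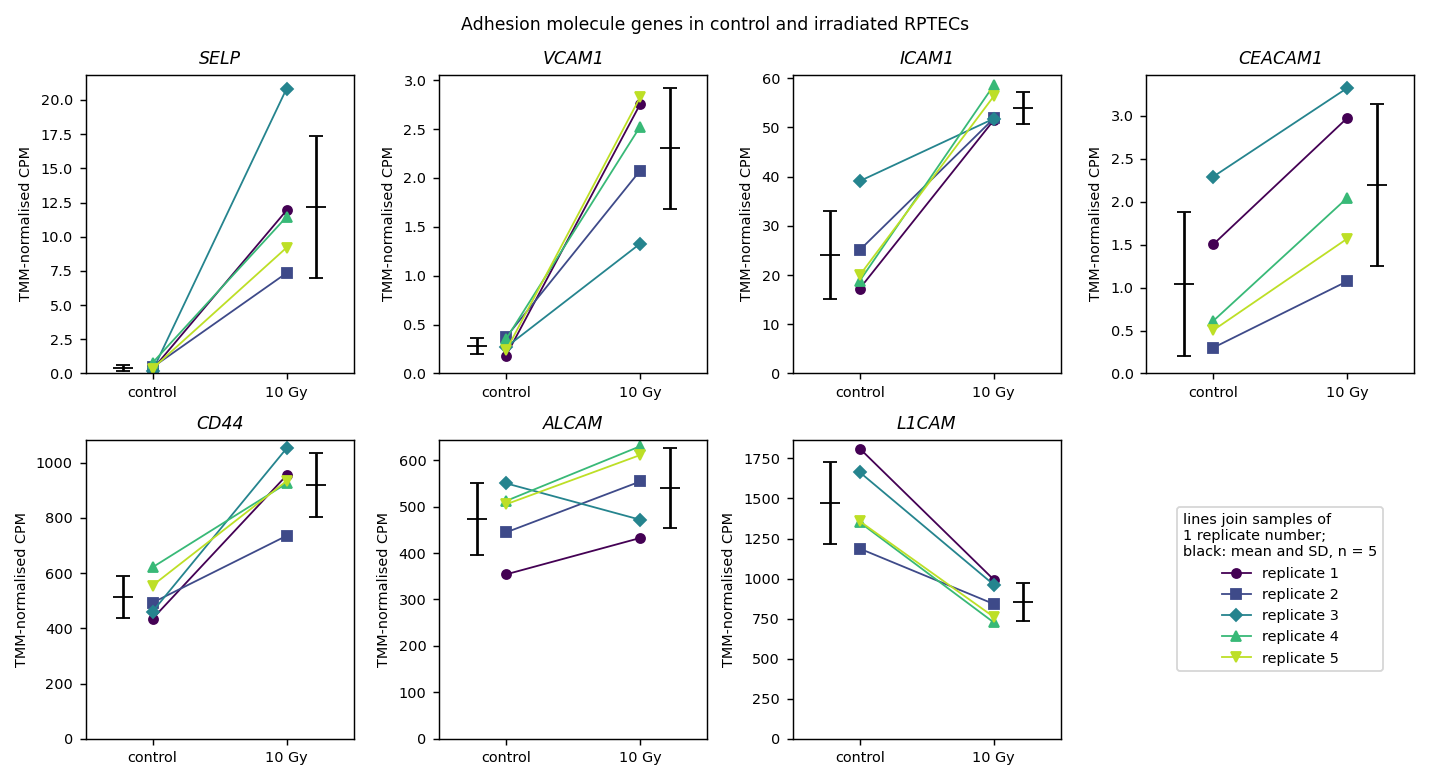
TMM-normalised CPM of the 7 tested members in control and irradiated (10 Gy) RPTECs; each line joins the samples of 1 replicate number, the black bars give mean and SD (n = 5), and every axis starts at 0. SELP, VCAM1, ICAM1 and CD44 separate the groups upwards and L1CAM downwards, whereas the groups overlap for CEACAM1 and ALCAM, and the ALCAM line of replicate 3 alone runs down.

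CEACAM1 (chromosome 19, 42507304 to 42561234, minus strand) rose in every pair, but its replicates were far apart. It measured 1.504, 0.300, 2.29, 0.613 and 0.504 CPM in controls, and 2.98, 1.08, 3.33, 2.05 and 1.57 CPM after irradiation. The groups overlapped, since controls 1 and 3 were above some irradiated samples, while replicates 1 and 3 were the highest in both groups. With the replicate block the log2 fold change was 1.28 (SE 0.21, adjusted p = 0.00183), and pair ratios lay between 1.45 and 3.58. Leaving out replicate 3 gave 1.51 (adjusted p = 0.000563). Without the block it was 1.10 with an adjusted p of 0.11, so that the call rests on the pairing. CEACAM genes are close copies of each other, and reads shared by copies may have been dropped.

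CD44 (chromosome 11, 35138882 to 35232402, plus strand), the hyaluronan receptor, was abundant throughout. Controls lay at 435, 493, 461, 621 and 555 CPM and irradiated samples at 954, 735, 1052, 925 and 934 CPM, with no overlap. The log2 fold change was 0.85 (SE 0.11, adjusted p = 0.000597), or 1.80-fold, and pair ratios ran from 1.49 to 2.28. Without replicate 3 it was 0.76 (adjusted p = 0.000913). An antisense gene, CD44-AS1, and the divergent transcript CD44-DT gave log2 fold changes of 0.86 (adjusted p = 0.00111) and 1.16 (adjusted p = 0.00618). They share 84 and 70 exon bases with CD44, and reads falling on both genes of such a pair were lost. Since strand was not used, reads on their other bases could come from either strand. Their values need not be those of antisense transcripts.

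ALCAM (chromosome 3, 105366909 to 105576900, plus strand) was also abundant, and its groups overlapped. It measured 354, 445, 550, 512 and 505 CPM in controls and 432, 554, 472, 630 and 611 CPM in irradiated samples. The level was higher after irradiation in 4 of 5 pairs, by a ratio of 1.21 to 1.25, and lower in pair 3, by a ratio of 0.858. The fitted log2 fold change was 0.19 (SE 0.09, adjusted p = 0.102) and did not pass the threshold. Without replicate 3 it was 0.30 and passed (adjusted p = 0.00117), so that this 1 pair decides the call.

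L1CAM (chromosome X, 153861514 to 153886173, minus strand), a homophilic adhesion molecule known from neurons and renal tubules, was the member that fell. Control replicates 1 to 5 stood at 1812, 1187, 1664, 1351 and 1358 CPM and irradiated ones at 993, 841, 962, 726 and 761 CPM. All irradiated samples were below all controls, and the level fell in 5 of 5 pairs. The log2 fold change was -0.78 (SE 0.07, adjusted p = 0.000137), or 1.71-fold lower, and it was -0.77 without replicate 3 (adjusted p = 0.000326). L1CAM-AS1, on the opposite strand, gave a log2 fold change of -0.76 (adjusted p = 0.00544). It shares 359 exon bases with L1CAM, and reads falling on both genes were lost. Since strand was not used, reads on the other bases of L1CAM-AS1 could come from either strand. Its value need not be that of an antisense transcript.

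Thus the groups did not overlap for 4 members that were higher (SELP, VCAM1, ICAM1 and CD44) and for 1 that was lower. Over all genes tested, the groups did not overlap for 14.6% with irradiated samples higher and for 12.0% with irradiated samples lower.

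**Figure D2:**
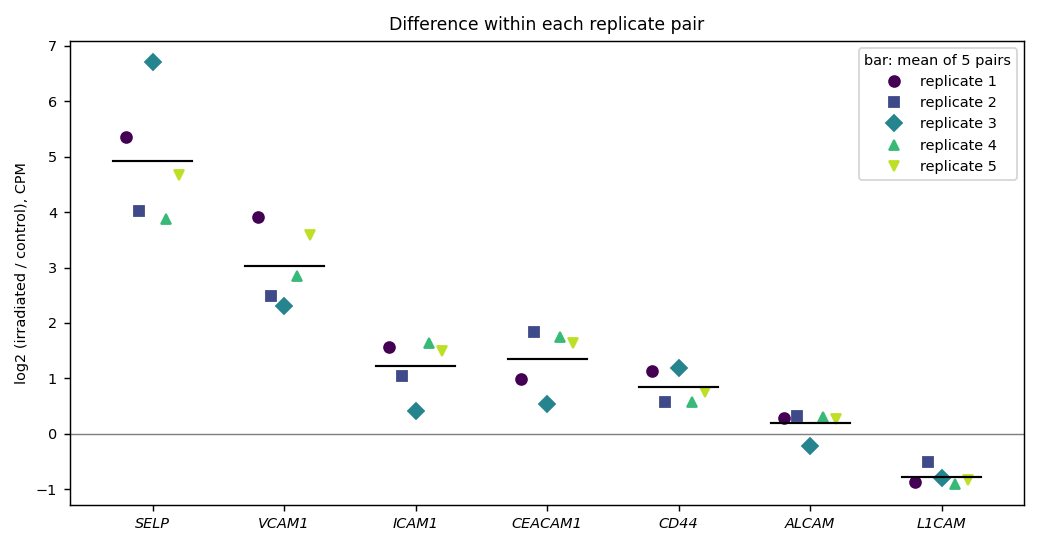
Difference within each replicate pair as log2 of irradiated over control CPM for the 7 tested members; each symbol is 1 pair, the bar is the mean of 5 pairs and the grey line is no change. Pair 3 gave the highest value for SELP (6.71) and the lowest for VCAM1 (2.30), ICAM1 (0.41), CEACAM1 (0.54) and ALCAM (-0.22).

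Pair 3 did not move all members alike. Its log2 difference was the highest of the 5 pairs for SELP and CD44 and the lowest for VCAM1, ICAM1, CEACAM1 and ALCAM. Irradiated replicate 3 held the highest SELP and the lowest VCAM1 of the irradiated samples. Control replicate 3 held the lowest SELP of the controls, whereas its VCAM1 was the control median. For ICAM1, control replicate 3 was the highest control, at 39.1 CPM. These are single samples, and no test was run on them.

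To set the members beside each other, levels were divided by merged exon length and are given as CPM per kilobase. In controls the order was L1CAM (202.8 ± 35.2, SD, n = 5), ALCAM (65.9 ± 10.7), CD44 (51.3 ± 7.55), ICAM1 (6.97 ± 2.58), CEACAM1 (0.189 ± 0.151), SELP (0.120 ± 0.0638) and VCAM1 (0.0467 ± 0.0131). L1CAM was above every other member in all samples of this group. The ranges of neighbours overlapped for ALCAM and CD44, for CEACAM1 and SELP, and for SELP and VCAM1, although ALCAM was above CD44 in 5 of 5 controls.

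In irradiated cells the order was L1CAM (117.9 ± 16.3), CD44 (92.1 ± 11.5), ALCAM (75.2 ± 12.0), ICAM1 (15.7 ± 0.946), SELP (3.48 ± 1.49), CEACAM1 (0.398 ± 0.171) and VCAM1 (0.381 ± 0.102). CD44 had passed ALCAM in 4 of 5 samples, and SELP had passed CEACAM1 in 5 of 5. The ratio of L1CAM to CD44 was 2.99 to 5.73 in controls and 1.08 to 1.57 in irradiated samples. With the length of the longest transcript instead, CD44 took place 1 and L1CAM place 2 in irradiated cells, so that the order of these neighbours depends on the length used. The ranges of neighbours overlapped in irradiated cells for L1CAM and CD44, for CD44 and ALCAM, and for CEACAM1 and VCAM1. VCAM1, though 7.89-fold higher, had the lowest mean per length of the 7 tested members in both groups, although CEACAM1 was above it in only 2 of 5 irradiated samples. VCAM1 stood at 0.0146 to 0.0305 of the ICAM1 level in irradiated samples.

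**Figure D3:**
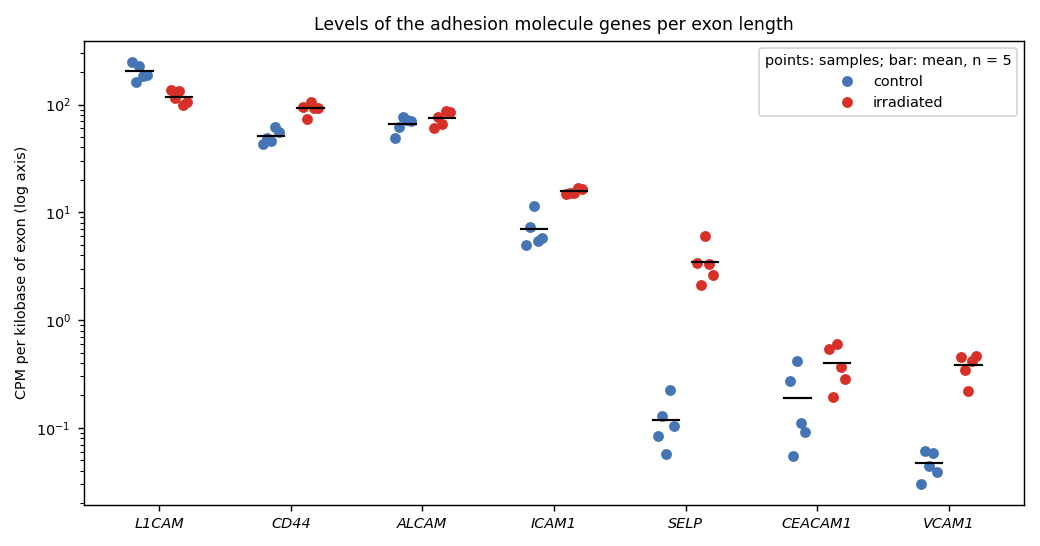
Level of each member as CPM per kilobase of merged exon (log axis) in the 5 control and 5 irradiated samples; points are samples and bars are means, and SELE, with 2 counts in all, is left out. SELP crossed from 0.0571 to 0.224 in controls to 2.11 to 5.97 in irradiated samples, past CEACAM1, while L1CAM came down towards CD44.

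Other surface adhesion genes were then examined. Of 37 listed, 25 were tested, of which 10 were higher, 6 lower and 9 not called (over all genes, 23.9% higher and 22.7% lower). Their median log2 fold change of 0.02 was close to that of all genes. NECTIN4, an epithelial adhesion molecule of adherens junctions, rose from 0.0489 to 0.129 CPM in controls to 1.48 to 3.40 CPM (log2 fold change 4.68, SE 0.18, adjusted p = 8.62e-06). CEACAM6, a close copy of CEACAM1, rose by a log2 fold change of 3.95 (SE 0.35, adjusted p = 0.000127), from 0 to 10 counts in controls to 12 to 156 in irradiated samples. NRCAM, of the L1 family, rose as L1CAM fell (log2 fold change 1.85, SE 0.18, adjusted p = 0.000159), from 19.4 to 55.3 CPM in controls to 81.9 to 133 CPM. The other ICAM genes of the list were named after their values were seen. ICAM2 rose (log2 fold change 1.79, SE 0.24, adjusted p = 0.000738) and ICAM5 fell by 0.83 on the log2 scale (SE 0.16, adjusted p = 0.0047), while ICAM3, with 8 counts in all, and ICAM4, at 0, were not tested. Exons on the opposite strand cover 100% of the exon length of ICAM4, 75.4% of ICAM3 and 26.8% of ICAM2. Reads on such stretches were lost, so the low counts of ICAM3 and ICAM4 cannot show whether these genes were expressed.

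The largest falls of the list were those of JAM3, BCAM and MCAM. BCAM, a laminin receptor, stood at 904 to 1454 CPM in controls and 253 to 605 CPM in irradiated samples (log2 fold change -1.61, SE 0.20, adjusted p = 0.000489). MCAM fell by 1.37 on the log2 scale (SE 0.13, adjusted p = 0.00017). JAM3, a junctional adhesion molecule, was low throughout and fell by 1.88 (SE 0.27, adjusted p = 0.00103), with groups that overlapped. Exons on the opposite strand cover 35.6% of its exon length, and reads on such stretches were lost, so its level is a lower estimate.

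Selectins bind sialylated and fucosylated sugars, which enzymes add to carrier proteins. Of 19 genes for such carriers, binding partners and enzymes, 15 were tested, of which 3 were higher and 5 lower (median log2 fold change -0.02). The shares over all genes tested were 23.9% higher and 22.7% lower. FUT4, a fucosyltransferase, rose from 5.33 to 7.27 CPM in controls to 11.1 to 14.7 CPM (log2 fold change 0.99, SE 0.11, adjusted p = 0.000284). PODXL, a sialomucin, rose by a log2 fold change of 0.56 (SE 0.10, adjusted p = 0.00267). Among those that fell was CD24, a P-selectin ligand, with 3351 to 5593 CPM in controls and 2248 to 2703 CPM in irradiated samples (log2 fold change -0.86, SE 0.10, adjusted p = 0.000428). TPST1, which sulphates tyrosines, fell by 0.73 on the log2 scale (SE 0.08, adjusted p = 0.00037). ST3GAL4, a sialyltransferase, fell by 1.13 (SE 0.34, adjusted p = 0.0275), and its call was lost without replicate 4 or without replicate 5. Control replicate 3 stood at 16.4 CPM against 3.83 to 4.36 CPM in the other controls. Without replicate 3 the log2 fold change was smaller, at -0.71 (adjusted p = 0.00184). SELPLG, which encodes the main P-selectin ligand PSGL-1, gave a log2 fold change of 0.28 that did not pass the test (adjusted p = 0.274).

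Among 21 ligands, anchors, sheddases and splicing factors of CD44 and L1CAM, 19 were tested, and 7 were higher and 7 lower (median log2 fold change -0.10). HAS3, a hyaluronan synthase, rose from 25.2 to 44.8 CPM in controls to 85.6 to 131.6 CPM (log2 fold change 1.64, SE 0.18, adjusted p = 0.000304). HAS1, another synthase, stood at 0.678 to 1.59 CPM in controls and 0.389 to 0.702 CPM after irradiation (log2 fold change -0.92, SE 0.17, adjusted p = 0.00309). The hyaluronidase HYAL1 fell by 0.51 on the log2 scale (SE 0.09, adjusted p = 0.00298). CD74, which pairs with CD44 as a receptor for MIF, rose from 9.59 to 16.8 CPM to 25.8 to 43.6 CPM (log2 fold change 1.64, SE 0.09, adjusted p = 2.78e-05). MMP14, a membrane protease that cuts CD44, rose by a log2 fold change of 0.93 (SE 0.07, adjusted p = 5.27e-05). HMMR, a hyaluronan-binding protein of dividing cells, fell by 1.96 (SE 0.37, adjusted p = 0.00401). Over all genes tested 23.9% were called higher and 22.7% lower, so calls in both directions are not particular to this list.

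The counter-receptors of the members on leukocytes were mostly below the limit. Of 10 genes, 2 were tested and both were higher, where 23.9% of all genes tested were called higher. ITGB2, the β2 integrin chain, stood at 11.6 to 17.8 CPM in controls and 26.8 to 42.4 CPM in irradiated samples (log2 fold change 1.16, SE 0.13, adjusted p = 0.000276). ITGAM, the αM chain, had 2 to 11 counts in controls and 58 to 157 in irradiated samples (log2 fold change 4.71, SE 0.31, adjusted p = 3.91e-05). The other chains were near 0, with 23 counts on ITGAL, 12 on ITGAX and 82 on ITGA4 over the 10 samples. Opposite-strand exons cover 26.4% of the exon length of ITGA4, where reads were lost.

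**Figure D4:**
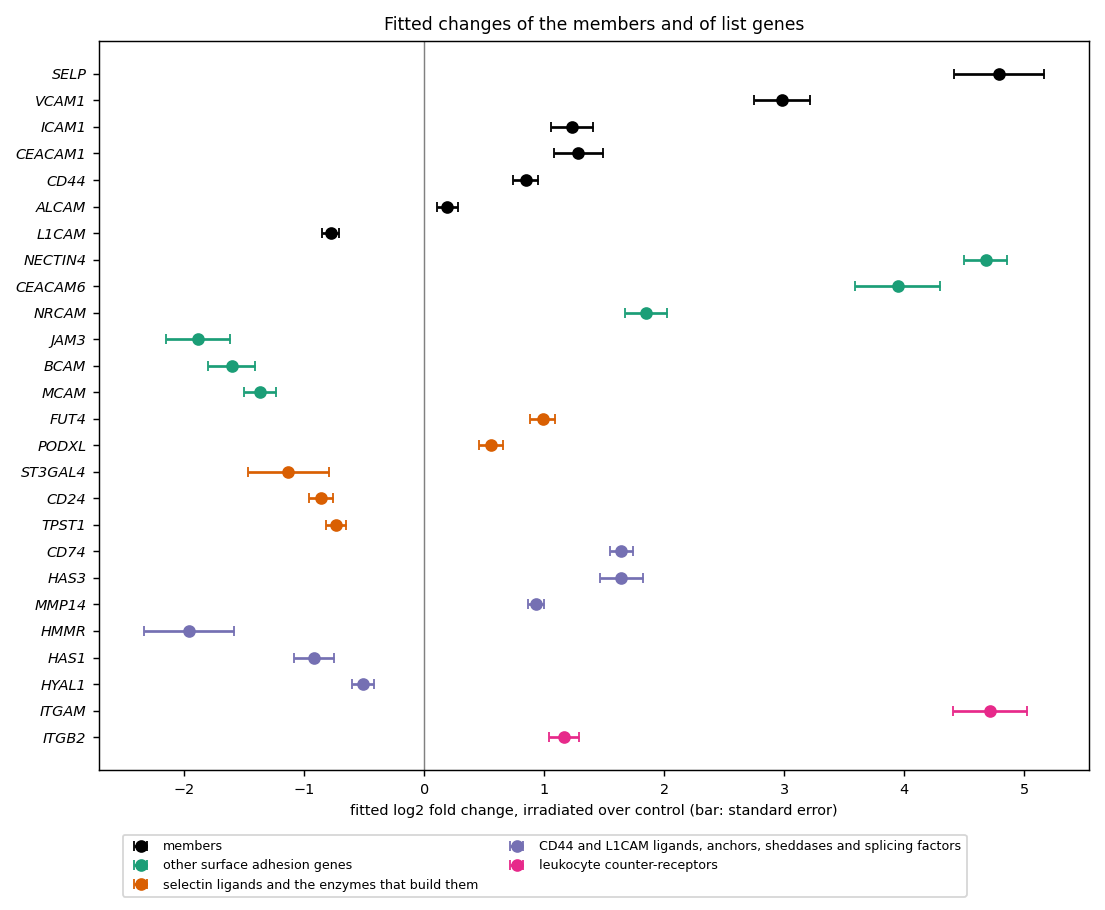
Fitted log2 fold change (irradiated over control, edgeR, n = 5 pairs) of the 7 tested members and of list genes named in the text, from 4 lists; bars are standard errors and colours mark the list. SELP, NECTIN4 and ITGAM lie near 4.7, and falls among the members are seen for L1CAM alone, at -0.78.

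Since SELP, VCAM1 and PECAM1 are also made by endothelium and SELP by platelets, markers of other cell types were read beside them. Of 9 endothelial markers, 3 were tested and 2 were higher, where 23.9% of all genes tested were called higher and 22.7% lower. The summed level of the 9 was 1.42 to 2.56 CPM in controls and 4.23 to 6.14 CPM in irradiated samples. CDH5 (VE-cadherin) and PECAM1 rose (log2 fold changes 2.48 and 0.72, adjusted p = 0.000255 and 0.00519), whereas VWF did not pass (log2 fold change -0.02, adjusted p = 0.965). The other listed endothelial genes were near 0 in both groups, with 2 counts on KDR, 7 on ERG, 9 on EMCN, 28 on CLDN5, 36 on TEK and 57 on TIE1 over the 10 samples. Of these untested genes, TIE1 was lower after irradiation in 5 of 5 pairs and EMCN higher in 5 of 5. The part of this summed level in the rise of SELP and VCAM1 was not tested.

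Of 5 platelet markers, PF4 was at 0 in all samples, and the tested one, GP1BA, gave a log2 fold change of 0.07 (adjusted p = 0.678). The platelet sum was 0.865 to 1.48 CPM in controls and 0.719 to 1.504 CPM in irradiated samples. Of 7 leukocyte markers, 2 were tested. CD14 rose (log2 fold change 1.09, adjusted p = 0.000479), while PTPRC (CD45), the pan-leukocyte marker, gave 0.27 and did not pass (adjusted p = 0.283). CD3E had 3 counts over the 10 samples, and the leukocyte sum was 0.687 to 0.917 CPM in controls and 1.03 to 1.49 CPM in irradiated samples. The fibroblast sum was 15.9 to 23.5 CPM in controls and 28.6 to 40.1 CPM in irradiated samples, nearly all of it COL1A1. COL1A1 rose, as did DCN (log2 fold changes 0.78 and 2.36, adjusted p = 0.000108 and 0.000201). The groups overlapped for DCN, at 0.110 to 0.522 CPM in controls and 0.454 to 4.45 CPM in irradiated samples. The other 4 fibroblast markers were below the limit, with 23 counts on COL1A2, 2 on LUM, 103 on PDGFRA and 49 on PDGFRB over the 10 samples. The part of these platelet, leukocyte and fibroblast levels in the members' changes was not tested.

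Lastly, genes whose levels followed those of a member most closely were sought among 12957 tested genes with a mean of at least 1 log2 CPM. Likeness was the root mean square difference of log2(CPM + 0.5) over the 10 samples, each gene centred on its own mean, and 0 would be the same profile. VCAM1 and CEACAM1 were below this level and were not searched. For ICAM1 the nearest genes were CD274, which encodes the checkpoint ligand PD-L1 (0.113), ENSG00000232949 (0.157) and TNFSF9, which encodes the T cell costimulator 4-1BB ligand (0.161). For SELP they were TRIM55 (0.212), IL23A, a cytokine subunit (0.256), and LINC00973 (0.274). CD44 lay closest to TGFBR2, a TGF-β receptor (0.0745), LMCD1 (0.0781) and MRS2 (0.0789), and L1CAM to TMEM121 (0.108), the LIF receptor gene LIFR (0.109) and TPRN (0.11). The matches of SELP were looser than those of the other 3, and all are descriptions of 10 samples that share the same treatment contrast.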

How the data were processed

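Bulk RNA-seq was analysed for 5 control and 5 irradiated samples. According to the study's methods, poly-A libraries were read as 150 bp pairs, trimmed with Trim-Galore and aligned to GRCh38 with STAR, which counted reads on GENCODE genes. The release is not given in the sources used here. The labels and the methods name different library kits. The authors deposited these raw counts, 1 column per sample and not normalised. Whether strand was used was read from the table: all 17 protein-coding genes lying wholly under opposite-strand exons had 0 counts, against 9.29% of 10506 without overlap, so the counts were taken as unstranded. Coordinates, symbols (61369 of 61587 identifiers matched) and exon lengths came from GENCODE v44.

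Counts were fitted with edgeR 4.0.16 in R 4.3.3 (TMM, glmQLFit, glmQLFTest) for genes whose 10 counts summed to 200 or more, the study's filter, with replicate number as a block, which the study's model also holds. Benjamini-Hochberg adjustment ran over all 19006 genes tested, with a threshold of 0.05. SE is the log2 fold change over the square root of F. Samples of 1 number were treated as a pair, since deviations from group means correlated at 0.229 to 0.588 for each number (different numbers -0.509 to 0.524). No 2 replicates agreed within counting noise (chi-square per gene, 6.83 to 163). Replicates 4 and 5 were the closest, at 11.7 in controls and 6.83 in irradiated samples. Any other 2 replicates differed by at least 42.2 in controls and 30.9 in irradiated samples. Whether replicates 4 and 5 share a batch or culture is not stated, and they were counted as separate pairs. Separate cultures are not stated, so p-values measure the spread between these samples. At these depths that spread sets the precision, except for genes near 200 counts or with few counts in 1 group, where counting noise adds to it. Examples are the control counts of VCAM1 (15 to 52), NECTIN4 (4 to 18) and ITGAM (2 to 11). NECTIN4, CEACAM6 and ITGAM reached the limit of 200 counts only through the irradiated samples, so that being tested depended on a rise. The fits were tested on simulated data.

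Genes named in the text are the members, up to 3 called rises and 3 called falls with the largest change in each of 4 adhesion lists, the 3 genes most like each called member, and antisense partners. SELPLG and marker genes are named as list members. The members and lists were chosen with earlier results of these data known. Results of some genes of these lists are not reported here. Alternatives were DESeq2 1.42.0, limma-voom (limma 3.58.1), other normalisations and filters, no block, and each replicate left out.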

Additional observations from a re-analysis of the deposited data

Results flagged for a closer look

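Among 54 groups of 5 samples over the members and the list genes chosen by the rule, 4 held a sample far from the other 4, where chance would give about 2.7. ST3GAL4 was at 16.4 CPM in control replicate 3 against 3.83 to 4.36 CPM in the other controls. MCAM was at 18.2 CPM in the same sample against 10.1 to 12.3 CPM, and MMP14 was at 370.0 CPM against 246 to 268 CPM. JAM3 was at 0.303 CPM in irradiated replicate 1 against 0.119 to 0.147 CPM in the other irradiated samples. No member had such a sample. Control replicate 3 held 3 of the 4 values.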

How the results depend on the processing

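All 7 tested members kept their direction under 12 alternatives, and 5 of them (VCAM1, ICAM1, SELP, CD44 and L1CAM) also kept their call. ALCAM passed only without replicate 3, and its log2 fold change ran from 0.17 to 0.30 over the fits that left out 1 replicate. CEACAM1 lost its call without the replicate block (log2 fold change 1.10), which changed no other member's call and lowered calls over all genes from 8857 to 7006. Per length of the longest transcript, CD44 came to place 1 and L1CAM to place 2 in irradiated cells. Of the 20 list genes chosen by the rule, 19 kept their call wherever they were tested, and ST3GAL4 lost it without replicate 4 (-1.17) and without replicate 5 (-1.19). CEACAM6 was below the limit of 200 counts without replicate 3 and has no value there. With library size only, 38.0% of all calls were rises, against 51.4% with TMM, while the median of all genes moved from -0.0098 to -0.086. Depth limits SELE, with 2 counts in all.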
